A study of Homo sapiens with 16 samples.

Results

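The response to palbociclib was compared between SUM159 and A549 cells by the difference of both responses, gene by gene: the log2 change from untreated to palbociclib in SUM159 minus the same log2 change in A549. It rests on 8 of the 16 libraries of the series, 2 in each of 4 groups, and on 17764 genes that passed the filter on low counts. A549 is a human lung cancer line with an epithelial character, and SUM159 is a human triple-negative breast cancer line with a mesenchymal character. The groups were A549 untreated, A549 with palbociclib, SUM159 untreated and SUM159 with palbociclib, where palbociclib was given at 2 µM for 16 h. A549 grew in RPMI with serum and L-glutamine, whereas SUM159 grew in DMEM/F12 with serum, insulin and hydrocortisone, so line and medium cannot be told apart. The groups were made in technical duplicate, so the tests cover the spread between these libraries and not that between independent cultures. Indisulam, given alone or with palbociclib to the other 8 libraries, was not part of the comparison, although those libraries helped to estimate the spread.

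Palbociclib inhibits the kinases CDK4 and CDK6, which with D-type cyclins phosphorylate the retinoblastoma protein RB. Unphosphorylated RB holds back E2F transcription factors, which drive genes of DNA synthesis, and the related pocket proteins, within the DREAM complex, hold back genes of mitosis through a short promoter element called CHR. Cells in which the kinases are inhibited stop before S phase, and genes of replication and mitosis fall together. A549 also carries an inactive KEAP1, and its NRF2 antioxidant program is therefore constantly on.

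Gene counts ran from 18306636 to 34075588 per library, and 3 counts, taken as the floor, corresponded to 0.0880 to 0.164 CPM (counts scaled by library size, after normalization between libraries). The lines matched their labels for most markers: 14 of 16 A549 markers were higher in every A549 library, and 9 of 15 markers on the SUM159 list were higher in every SUM159 library. On the SUM159 list 3 markers went the other way. FOXC1 was at 88.4 to 111 CPM in A549 and 8.68 to 13.3 CPM in SUM159, and CDKN2A and MTAP had 24 to 55 and 569 to 1039 counts in A549 libraries and 0 or 1 in SUM159. A549 is described as lacking the CDKN2A product, in the study too, so for this gene the libraries went against that description. The study also reports an increase of p16INK4A, a CDKN2A protein, in a Western blot of SUM159 after longer treatment. SUM159 RNA at 16 h gave 0 or 1 counts of the gene. The list also gives MTAP as lost in A549, and ESR1 and ERBB2 as low in SUM159. ESR1, counted among the 9, had 0 counts in A549 libraries and 7 to 27 in SUM159, against its place on the list. ERBB2 was at 92.5 to 122 CPM in SUM159 and 109 to 130 CPM in A549. Whether the list or the cells depart from the description was not tested. Blood cell markers summed to 0.583 to 4.66 CPM, with 6 of 8 at 3 counts or fewer in every library, and endothelial markers to 0.801 to 1.65 CPM in A549 and 21.5 to 26.8 CPM in SUM159. The untreated SUM159 duplicates stood furthest apart, where the chi-square of their counts divided by its degrees of freedom was 9.13, against 2.27 to 5.43 in the other groups, and mitochondrial genes took 3.44% and 1.83% of their gene counts. Those genes took 4.78% and 5.57% with palbociclib in SUM159 and 5.79% to 7.28% in A549.

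Genes that passed in both lines mostly moved the same way. Of 4981 genes that passed an adjusted p of 0.05 in both (edgeR quasi-likelihood test, Benjamini-Hochberg), 4804 did so, 2208 up and 2596 down. Of these, 3982 did not pass the test of the difference, which does not show that their changes were equal. Genes that passed in 1 line only are outside these counts. In A549, taken by itself, 7076 genes passed (39.8% of those tested), 3351 up (18.9%) and 3725 down (21.0%). In SUM159 8598 passed (48.4%), 5017 up (28.2%) and 3581 down (20.2%). The difference between the lines passed in 2274 genes (12.8%), with 1715 higher (9.65%) and 559 lower (3.15%) in SUM159. The size was mostly modest: 279 of these differed by at least 1 on the log2 scale, 261 higher and 18 lower.

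The balance of higher and lower differences depended on how libraries of such unlike lines were scaled to each other. The median difference over all genes was 0.08 with the scaling used, and it moved by -0.05 to -0.15 under 4 other scalings. Genes higher in SUM159 made up 75.4% of the calls, against 44.02% with DESeq2 size factors, 54.0% with scaling inside each line, 61.3% with total counts and 28.6% with mitochondrial genes left out. Leaving out 1 of the A549 libraries moved the median by -0.13 to -0.17 and the share to between 23.2% and 30.6%. In each of these fits the scaling took a SUM159 library as its reference, in place of untreated A549 library 1. The fit without mitochondrial genes did so too. Values of single genes without an A549 library, given below, include this shift of all genes. Genes that passed with the same sign under all 5 scalings are therefore called stable, and counts over gene lists rest on them; this choice was made after the data were seen. There were 1430 stable genes (8.05% of those tested), 871 higher (4.90%) and 559 lower (3.15%), and 248 of them differed by at least 1. The condition removed higher calls only: 1715 became 871, while the lower calls were 559 before and after. The 4 other scalings all moved the median down, so being stable was no further check on the lower genes.

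**Figure D1:**
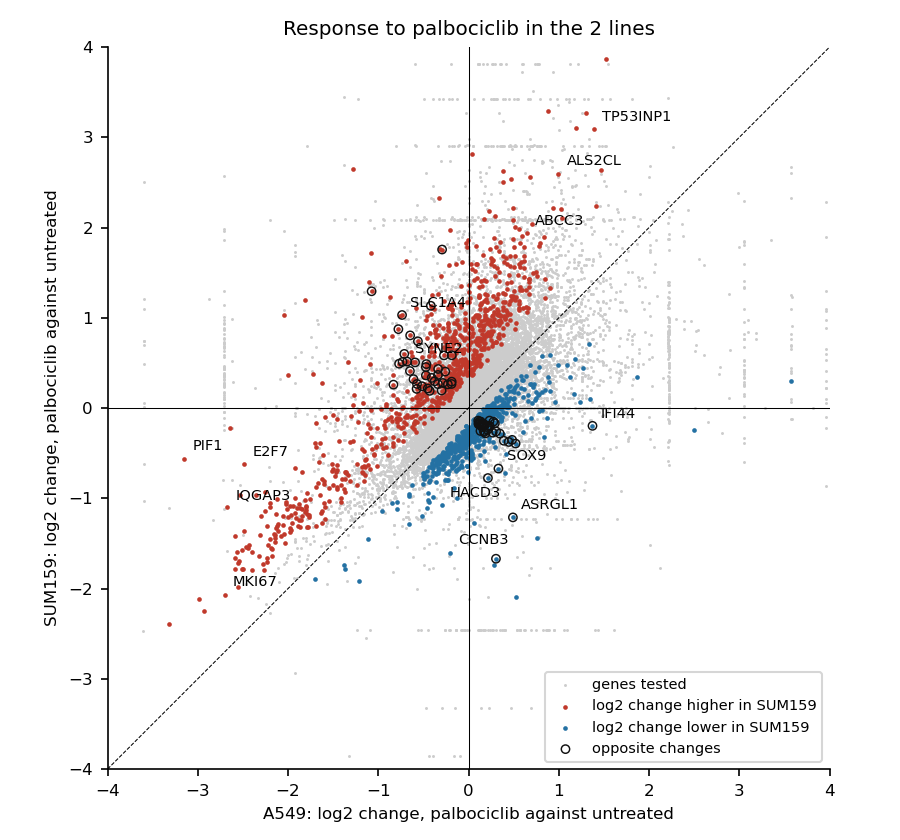
Log2 change with palbociclib in A549 (horizontal) and SUM159 (vertical) for each gene tested, with 73 genes outside the axes at ±4; red and blue points are stable genes with a higher or lower change in SUM159, circles are the 77 stable opposite changes, and the dashed line marks equal change. Stable genes higher in SUM159 form an arm of genes that fell in both lines but more in A549, ending near PIF1 and E2F7, and a cloud of genes that rose more in SUM159; horizontal and vertical rows of grey points are genes near the floor in 1 line.

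Genes of mitosis held the highest share of stable differences among the 18 lists. All 54 on the list fell in both lines, and 48 were stable with a smaller fall in SUM159, where 4.90% of all genes were; none was stable in the other direction. After palbociclib the median fitted level over the list was 22.3% of untreated in A549 and 38.1% in SUM159, although the median level before treatment was alike, 136 and 134 CPM. The median log2 difference was 0.70, beside 0.08 over all genes, and between 46 and 49 of the 54 passed under every alternative tried. NUSAP1, ECT2, SMC4, MAD2L1 and PRC1 did not pass, and NUSAP1 and PRC1 lay under 10 CPM in every library.

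KIF23, a kinesin of the midzone needed for cytokinesis, stood at 265 and 276 CPM in untreated A549 libraries and at 56.0 and 57.0 CPM with palbociclib. In SUM159 it went from 148 and 147 CPM to 68.1 and 65.1 CPM, so the fall was steeper in A549. The log2 change was -2.26 in A549 and -1.14 in SUM159, a difference of 1.11 (SE 0.06, edgeR adjusted p = 6.35e-12). KIF14, another kinesin of cytokinesis, fell from 113 and 126 CPM to 20.8 and 21.7 CPM in A549, and from 72.4 and 73.5 CPM to 28.4 and 28.4 CPM in SUM159, a difference of 1.13 (SE 0.09). CENPE, the kinetochore motor that carries chromosomes to the spindle equator, kept 21.8% of its level in A549 and 48.2% in SUM159. TOP2A, the topoisomerase that untangles sister chromatids, began at 776 and 835 CPM in A549 and 775 and 825 CPM in SUM159, and ended at 149 and 150 CPM against 279 and 280 CPM. For TOP2A the starting levels of the lines overlapped and the treated levels did not. MKI67, the proliferation antigen, kept 15.3% in A549 and 23.8% in SUM159, a difference of 0.63 (SE 0.11) that was 0.34 without untreated A549 library 2 and 0.38 without treated A549 library 2 (edgeR adjusted p = 0.03855 and 0.0394).

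Among genes outside the list, PIF1 and E2F7 showed the widest gaps between falls. PIF1, a DNA helicase on chromosome 15 (64815632 to 64825668, GRCh38, minus strand), fell from 23.7 and 26.2 CPM to 2.97 and 2.69 CPM in A549. In SUM159 it fell from 11.98 and 12.2 CPM only to 7.46 and 8.83 CPM, so 11.3% and 67.7% remained, and the log2 difference was 2.59 (SE 0.21, edgeR adjusted p = 9.67e-09). E2F7, a repressor of the E2F family on chromosome 12 (77021248 to 77065569, minus strand), fell from 38.3 and 39.7 CPM to 7.30 and 6.71 CPM in A549. In SUM159 it was at 66.7 and 73.4 CPM before and 45.4 and 45.6 CPM after, which left 17.8% and 65.0%, a difference of 1.86 (SE 0.10). IQGAP3, a scaffold of proliferating cells, and GPSM2, which orients the spindle, behaved alike, with 15.7% and 19.5% left in A549 and 46.6% and 51.1% in SUM159, and differences of 1.57 and 1.39. Both were picked after their values were seen, as the widest gaps among genes of at least 5 CPM in each line.

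DNA replication was closer to equal in the lines. Of 51 genes, 50 fell in A549 and 50 in SUM159, to medians of 37.1% and 44.1% of untreated. The difference passed in 18 higher and 4 lower, but only 6 and 4 were stable, beside 4.90% and 3.15% of all genes. Among those less reduced in SUM159 were POLE, the catalytic subunit of the leading-strand polymerase, and TIMELESS, CDC45, RFC4 and POLA2 of the replication fork. POLE kept 38.6% and 61.0%, a difference of 0.66 (SE 0.07). On the other side were PCNA, the sliding clamp, DUT, and MCM7 and MCM3 of the replicative helicase, which fell further in SUM159. PCNA went from 342 and 337 CPM to 124 and 135 CPM in A549 and from 228 and 244 CPM to 73.8 and 68.0 CPM in SUM159, a difference of -0.35 (SE 0.07, edgeR adjusted p = 0.000712). POLA2 lost its call in edgeR without untreated A549 library 1 (difference 0.56, adjusted p = 0.0721) or treated A549 library 1 (0.57, adjusted p = 0.0564). The edgeR call was also lost for RFC4 without untreated A549 library 1 (0.23, adjusted p = 0.123) or treated A549 library 1 (0.19, adjusted p = 0.166), and for CDC45 without untreated A549 library 1 (0.30, adjusted p = 0.0568). DUT lost it without untreated or treated SUM159 library 2 (-0.24 and -0.23, edgeR adjusted p = 0.0864 and 0.0825), whereas PCNA reached -0.54 and -0.59 without untreated or treated A549 library 1.

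**Figure D2:**
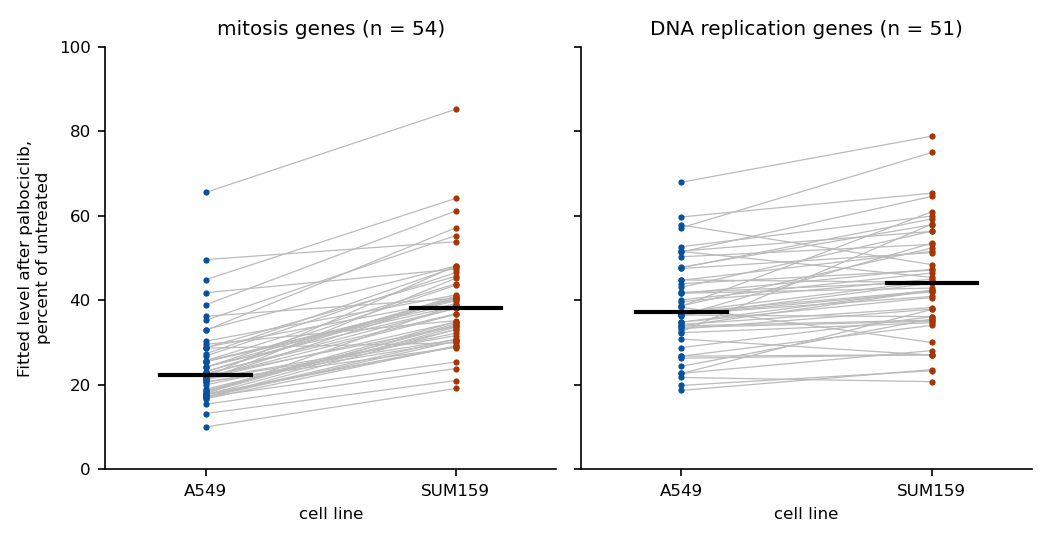
Fitted level after palbociclib as a percent of untreated (axis from 0) for each gene of the mitosis list (left, 54 genes) and the DNA replication list (right, 51 genes) in A549 and SUM159; each grey line joins 1 gene and black bars are medians. The mitosis medians are 22.3% and 38.1% and every line slopes up towards SUM159, while the replication medians are 37.1% and 44.1% and some lines slope down.

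Promoter letters were read for both groups, because genes of mitosis and replication are known to carry different elements. RefSeq windows from 250 bases before to 50 bases after the start were found for 12353 of the genes tested. The CHR letters TTTGAA or TTCGAA (the latter its own reverse complement) were searched on both strands and stood in 11.8% of all windows. They stood in 34 of 47 mitosis windows (72.3%) and 3 of 44 replication windows (6.82%). The E2F letters TTCCCGC or TTGGCGC stood in 13.9% of all windows, 19.1% of mitosis windows and 61.4% of replication windows. Of the 156 windows of stable genes that fell in both lines but more in A549, 46.8% held CHR letters and 21.8% E2F letters. Of the 102 of stable genes that fell in both but more in SUM159, 10.8% held CHR letters and 29.4% E2F letters. Over all genes that fell in both lines the split was small: the median difference was 0.10 in 250 windows with CHR letters alone, 0.03 in 438 with E2F letters alone and 0.01 in 1359 with neither. It was 0.12 in 81 windows with both, beside 0.08 over all genes tested. These shares describe letters in a window and not sites that were shown to be bound. The 6 promoters shown next were picked without a fixed rule, and PCNA, MCM3 and MCM7 are not typical of the replication list. On that list 44 of 51 genes had a difference above 0, with a median of 0.19 beside 0.08 over all genes.

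Shown here are the 200 bases before the start (GRCh38.p14, RefSeq, 5′ to 3′ on the gene's strand) of 3 genes that fell less in SUM159, where capitals mark the CHR letters, followed by 3 that fell more in SUM159, where capitals mark the E2F letters or their reverse complement. KIF23 lies at chr15:69414149-69414348 (plus strand), KIF4A, a chromosome-condensing kinesin, at chrX:70289904-70290103 (plus), GPSM2 at chr1:108876785-108876984 (plus), PCNA at chr20:5126623-5126822 (minus), MCM3 at chr6:52284743-52284942 (minus) and MCM7 at chr7:100101398-100101597 (minus). The CHR letters begin 55, 34 and 34 bases before the start of KIF23, KIF4A and GPSM2, and the E2F letters begin 59 bases before that of PCNA, 173 and 23 before MCM3 and 187 before MCM7.
KIF23: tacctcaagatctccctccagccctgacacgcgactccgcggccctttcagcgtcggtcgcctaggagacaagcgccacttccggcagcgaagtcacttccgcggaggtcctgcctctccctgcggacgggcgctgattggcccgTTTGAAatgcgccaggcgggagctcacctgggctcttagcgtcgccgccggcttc
KIF4A: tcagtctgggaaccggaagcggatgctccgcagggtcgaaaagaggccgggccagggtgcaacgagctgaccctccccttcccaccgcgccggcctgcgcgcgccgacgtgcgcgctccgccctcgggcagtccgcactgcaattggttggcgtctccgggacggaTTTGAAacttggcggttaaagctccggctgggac
GPSM2: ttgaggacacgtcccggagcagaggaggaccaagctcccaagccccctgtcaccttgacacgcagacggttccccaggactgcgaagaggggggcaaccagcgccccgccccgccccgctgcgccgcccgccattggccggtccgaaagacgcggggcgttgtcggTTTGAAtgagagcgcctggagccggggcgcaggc
PCNA: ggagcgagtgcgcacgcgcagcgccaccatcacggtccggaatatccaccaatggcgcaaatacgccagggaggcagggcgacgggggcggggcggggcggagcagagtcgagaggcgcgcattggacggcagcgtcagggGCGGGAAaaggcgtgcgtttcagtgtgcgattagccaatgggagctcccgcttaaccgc
MCM3: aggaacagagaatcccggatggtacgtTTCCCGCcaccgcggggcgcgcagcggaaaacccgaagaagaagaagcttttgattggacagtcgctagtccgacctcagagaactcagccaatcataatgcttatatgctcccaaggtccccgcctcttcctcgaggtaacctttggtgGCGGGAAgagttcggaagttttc
MCM7: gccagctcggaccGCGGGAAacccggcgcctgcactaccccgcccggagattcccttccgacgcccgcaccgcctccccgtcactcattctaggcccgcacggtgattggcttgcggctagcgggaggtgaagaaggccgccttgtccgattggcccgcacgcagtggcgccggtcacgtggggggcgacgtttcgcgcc
KIF4A fell from 131 and 139 CPM to 24.5 and 23.1 CPM in A549 and from 145 and 153 CPM to 50.9 and 49.4 CPM in SUM159, a difference of 0.94 (SE 0.07). MCM7 fell from 434 and 426 CPM to 130 and 135 CPM and from 390 and 393 CPM to 106 and 105 CPM, a difference of -0.19 (SE 0.05, edgeR adjusted p = 0.0198). MCM3 differed by -0.18 (SE 0.05, edgeR adjusted p = 0.0261). Without untreated or treated SUM159 library 2 both lost the edgeR call, with adjusted p = 0.0640 and 0.0589 for MCM7 and 0.102 and 0.103 for MCM3, and without any 1 A549 library they lay between -0.30 and -0.40.

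The RB axis itself responded much alike. Of its 31 genes, E2F7 was the only stable one on the higher side, and CCND3 and CDK4 were on the lower side, beside 4.90% and 3.15% of all genes. CCND1, the cyclin partner of CDK4 and CDK6, rose from 443 and 432 CPM to 587 and 595 CPM in A549 and from 443 and 432 CPM to 612 and 611 CPM in SUM159, and the difference was 0.05 (SE 0.05, edgeR adjusted p = 0.643). RB1 fell by 0.63 and 0.58 on the log2 scale, with a difference of 0.06 (SE 0.07). E2F1 fell by 1.21 and 1.31 and CCNE2, cyclin E2, by 1.88 and 1.70, with differences of -0.10 (SE 0.10) and 0.18 (SE 0.16) that did not pass. CDKN1A, the p21 inhibitor, changed by -0.19 and -0.15, and CDK6 by 0.00 and -0.10, with differences of 0.04 (SE 0.09) and -0.10 (SE 0.09). CCND3, another D-type cyclin, was at 285 and 270 CPM before and 335 and 341 CPM after in A549, and at 162 and 164 CPM before and 167 and 169 CPM after in SUM159, a difference of -0.24 (SE 0.06) that lay between -0.36 and -0.46 without any 1 A549 library. CDK4 differed by -0.21 (SE 0.07, edgeR adjusted p = 0.0402), and the edgeR call was lost without untreated SUM159 library 2 (-0.16, adjusted p = 0.222) or treated SUM159 library 2 (-0.20, adjusted p = 0.116), while it reached -0.46 without treated A549 library 1. RBL1, E2F8 and the lamin gene LMNB1, whose loss accompanies senescence, also fell in both lines, and their differences of 0.41, 0.51 and 0.34 passed but were not stable. Without treated A549 library 2 these were 0.15, 0.14 and 0.11 (edgeR adjusted p = 0.457, 0.693 and 0.404).

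Opposite responses, significant in each line with opposite signs and in the difference, were found for 174 genes (0.980% of those tested). Of these 120 fell in A549 and rose in SUM159 (0.676%) and 54 did the reverse (0.304%). Under all 5 scalings 77 remained opposite (0.433%), 37 in the first direction (0.208%) and 40 in the second (0.225%). The 77 include HTRA3, ACSS3 and RAB38, which had very few counts in 1 line and lost the call in edgeR without 1 library. Most were modest. The genes below are those with the largest smaller change of both lines, apart from SOX9 and BAIAP2L2, which were picked after their values were seen, as wide differences among genes of at least 5 CPM in each line.

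SLC1A4, a transporter of neutral amino acids on chromosome 2 (64988477 to 65023865, plus strand), was at 27.8 and 26.8 CPM in untreated A549 and 15.1 and 17.3 CPM with palbociclib. In SUM159 it was at 1.59 and 1.32 CPM before and 3.02 and 2.93 CPM after. Treated libraries thus lay below untreated ones in A549 and above them in SUM159, with log2 changes of -0.74 and 1.03 and a difference of 1.77 (SE 0.22, edgeR adjusted p = 3.48e-06). SNAI1, a repressor of epithelial genes, went from 2.67 and 2.39 CPM to 1.61 and 1.51 CPM in A549 and from 9.26 and 8.94 CPM to 13.9 and 13.7 CPM in SUM159, a difference of 1.31 (SE 0.22). SYNE2, a nuclear envelope protein that ties the nucleus to the cytoskeleton, fell from 45.0 and 50.4 CPM to 30.9 and 28.8 CPM and rose from 25.4 and 28.4 CPM to 36.0 and 40.6 CPM, a difference of 1.20 (SE 0.12). The order of the lines was reversed for SYNE2, with A549 above SUM159 before treatment and below it after. TUBB2A, a beta-tubulin with close paralogs that may share reads, changed by -0.59 and 0.51, and HCN3, a channel subunit, by -0.73 and 0.51, although the untreated SUM159 libraries of HCN3 differed (4.67 and 2.90 CPM). PLEKHH2 met the threshold as well, but averaged under 1 CPM in SUM159, was not opposite under every scaling and lost its call in edgeR without treated SUM159 library 2 (1.19, adjusted p = 0.200).

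Some listed genes shared this direction. EREG, a ligand of the EGF receptor, fell from 118 and 121 CPM to 103 and 95.3 CPM in A549 and rose from 89.5 and 84.5 CPM to 133 and 127 CPM in SUM159, a difference of 0.86 (SE 0.07, edgeR adjusted p = 6.60e-09). FBLN1, a matrix glycoprotein, changed by -0.57 and 0.27, and STC2, a secreted glycoprotein induced by endoplasmic reticulum stress, by -0.45 and 0.22. TNC, KRT81 and TFCP2L1 fell in A549 and rose in SUM159 with stable differences of 0.86, 0.99 and 0.92, but were not opposite under all 5 scalings, and TFCP2L1 was at 0.59 without untreated A549 library 1.

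In the reverse direction, SOX9, a transcription factor of progenitor cells on chromosome 17 (72121020 to 72126416, plus strand), rose from 20.9 and 19.6 CPM to 24.5 and 26.3 CPM in A549. In SUM159 it fell from 18.6 and 18.2 CPM to 11.1 and 11.97 CPM, so that lines with nearly the same level before treatment were clearly apart after it, with a difference of -1.001 (SE 0.11, edgeR adjusted p = 5.68e-07). MECOM, a zinc finger regulator of stem cells, rose from 50.6 and 49.7 CPM to 72.0 and 65.0 CPM and fell from 44.3 and 43.7 CPM to 33.7 and 34.1 CPM, a difference of -0.82 (SE 0.08). PAG1, a membrane adaptor that recruits the kinase CSK, changed by 0.52 and -0.39, and ANTXR2, an anthrax toxin receptor that binds matrix, by 0.48 and -0.35. ASRGL1, an asparaginase-like enzyme, rose from 94.8 and 98.4 CPM to 131 and 141 CPM in A549 and fell from 1.68 and 1.90 CPM to 0.596 and 0.909 CPM in SUM159, a difference of -1.70 (SE 0.26). BAIAP2L2 changed by 0.21 and -0.78 and METTL18 by 0.39 and -0.36, and METTL18 overlaps C1orf112 on the other strand. Among other named genes, HCN3 overlaps CLK2 and PKLR, SYNE2 overlaps ESR2, and DDIT3 overlaps MARS1 and MBD6 on the other strand. PFKFB4 overlaps UCN2 and MXD1 overlaps SNRNP27 on the same strand, and further named genes overlap others as well. B3GALT5, a galactosyltransferase, passed with a difference of -1.13 but was not opposite under every scaling, and lost its call in edgeR without untreated SUM159 library 1 (-0.99, adjusted p = 0.120) or treated SUM159 library 1 (-0.77, adjusted p = 0.102), and was at -1.76 without treated SUM159 library 2.

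**Figure D3:**
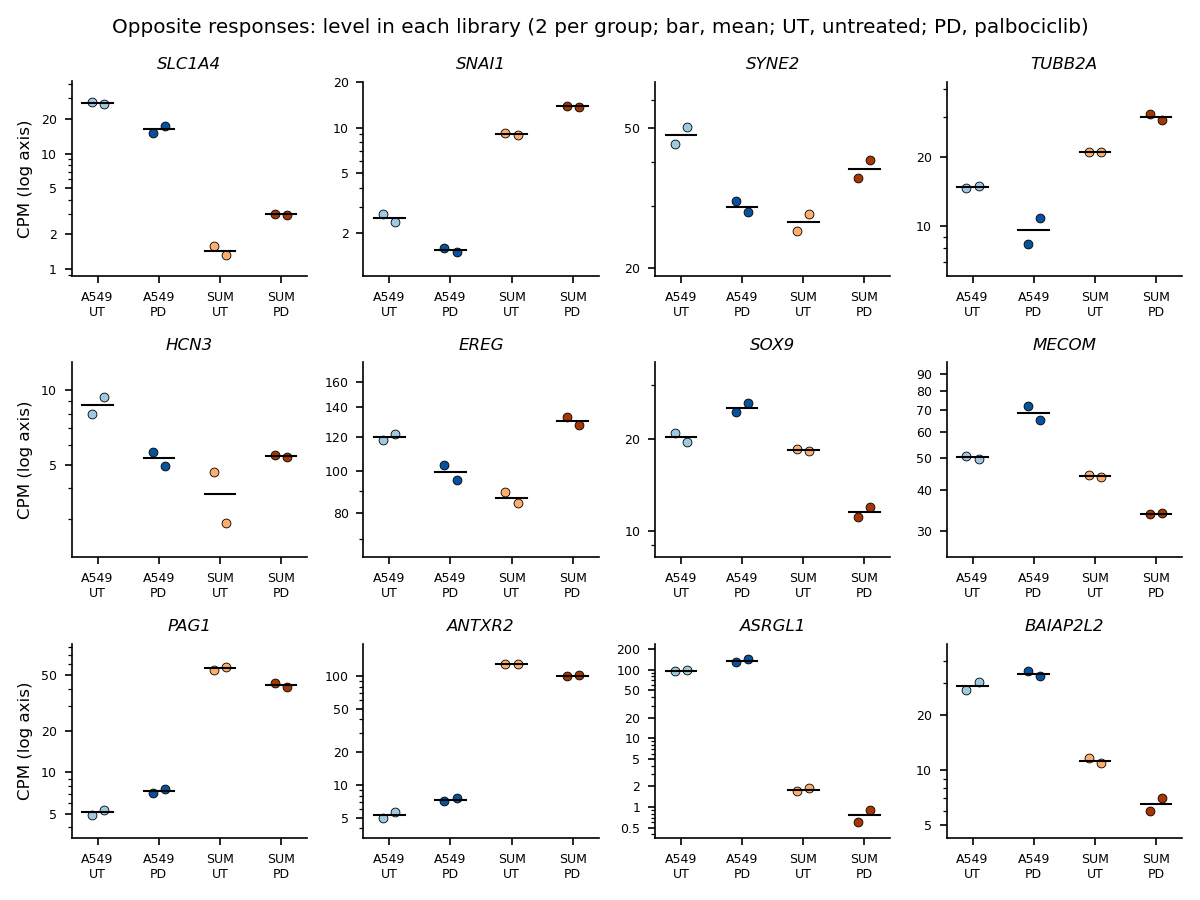
CPM (log axis, a scale of its own for each gene) in each of the 8 libraries for 12 stable opposite responders; points are libraries, bars are means of 2, UT is untreated and PD is palbociclib. In the 6 genes from SLC1A4 to EREG treated A549 lies below untreated A549 and treated SUM159 above untreated SUM159; in the 6 from SOX9 to BAIAP2L2 it is the other way round.

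Genes that rose, and rose more in SUM159, came from several programs. On the NRF2 list 8 of 32 were stable and higher in SUM159 and none was stable and lower, beside 4.90% and 3.15% of all genes; without requiring stability the counts were 11 and 0, and up to 8 passed as lower under other settings. ABCC3, an exporter of conjugated compounds on chromosome 17, rose from 609 and 636 CPM to 989 and 959 CPM in A549 and from 67.0 and 63.8 CPM to 239 and 262 CPM in SUM159. That is 1.56-fold and 3.83-fold, a log2 difference of 1.29 (SE 0.09, edgeR adjusted p = 4.39e-10), and SUM159 remained below A549 throughout. HMOX1, which degrades haem, did not pass in A549 (19.5 and 18.5 CPM before, 20.0 and 19.3 CPM after) and rose in SUM159 from 128 and 128 CPM to 225 and 221 CPM. AKR1C3, a reductase of ketosteroids, rose by 0.14 in A549, where it stood at 1798 to 2062 CPM, and by 0.92 in SUM159, where it stood at 51.0 to 101 CPM. AKR1C1, AKR1C2, FTH1, ABCC2 and GCLC made up the rest, and GCLC fell in A549 and did not pass in SUM159. AKR1C1 and GCLC lost the edgeR call without untreated A549 library 1 (0.16 and 0.19, adjusted p = 0.172 and 0.0615) or library 2 (0.21 and 0.17, adjusted p = 0.0759 and 0.130), and each without 1 treated A549 library. FTH1 moved from 0.51 to 0.32 without untreated or treated A549 library 1, and ABCC2 from 0.46 to 0.22 without untreated A549 library 2. The AKR1C genes are close copies of each other and may share reads.

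On the stress response list NUPR1, STC2, CALR and DDIT3 were stable and higher of 31, and none was lower, beside 4.90% and 3.15% of all genes; under other settings up to 4 passed as lower. NUPR1, a small chromatin protein of the stress response, rose from 6.73 and 5.54 CPM to 8.17 and 8.64 CPM in A549 and from 5.17 and 4.94 CPM to 15.7 and 14.5 CPM in SUM159, a difference of 1.11 (SE 0.16). The untreated levels of both lines lay close together, and the treated ones did not overlap. CALR, the calreticulin chaperone, fell by 0.21 in A549 and rose by 0.09 in SUM159, and its edgeR call was lost without untreated A549 library 1 or 2 or treated A549 library 1 (0.12, 0.15 and 0.10, adjusted p = 0.230, 0.123 and 0.277). DDIT3 changed by -0.44 and 0.34. Its difference of 0.78 lost the edgeR call without untreated A549 library 2 (0.58) or treated A549 library 2 (0.57). Of the stable genes on this list only STC2 was opposite under all 5 scalings. Of 31 p53 targets 7 rose and 8 fell in A549, beside 18.9% and 21.0% of all genes. In SUM159 12 rose and 6 fell, beside 28.2% and 20.2% of all genes. Stable differences were 2 higher, TP53INP1 and DDB2, and 1 lower, AEN, beside 4.90% and 3.15% of all genes. DDB2, a sensor of ultraviolet damage, fell in both lines, and its difference of 0.51 lost its edgeR call without untreated A549 library 2 (0.32, adjusted p = 0.0659). TP53INP1, a promoter of autophagy, rose in both lines, from 4.65 and 5.83 CPM to 13.8 and 13.5 CPM in A549 and from 0.408 and 0.635 CPM to 4.66 and 4.31 CPM in SUM159, a difference of 1.70 (SE 0.33).

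Of 39 secreted factors 8 were stable and higher in SUM159 and 1, CCN2, lower; of 41 matrix genes 8 were higher and 1, LAMB3, lower; and of 31 targets of actin, SRF and YAP 6 were higher and 4 lower, beside 4.90% and 3.15% of all genes. F3, tissue factor, was at 7.64 to 9.35 CPM in A549 without passing, and rose in SUM159 from 427 and 407 CPM to 751 and 757 CPM, a difference of 1.07 (SE 0.10). COL7A1, the collagen of anchoring fibrils, did not pass in A549 (95.2 and 100 CPM before, 112 and 110 CPM after) and rose from 168 and 155 CPM to 317 and 372 CPM in SUM159, a difference of 0.91 (SE 0.12). TGFBI, a matrix protein induced by TGF-beta, changed by 0.05 in A549 without passing and rose by 0.59 in SUM159, a difference of 0.54 that was 0.36 without treated A549 library 1. VEGFA, the angiogenic factor, rose in SUM159 from 123 and 117 CPM to 165 and 170 CPM and stayed between 95.9 and 105 CPM in A549, a difference of 0.51 (SE 0.08) that was 0.32 and 0.30 without untreated or treated A549 library 2. IGFBP3 fell by 0.27 in A549, where it is abundant (932 to 1159 CPM). In SUM159 it rose by 0.44, where it lay between 2.22 and 3.17 CPM, and it was not opposite under all 5 scalings. Among the lower genes CCN2 rose in both lines, by 0.90 and 0.59, while SRF, YAP1 and WWTR1, themselves transcription regulators on the list, fell in SUM159 by 0.39, 0.29 and 0.18. Their differences of -0.34, -0.29 and -0.35 reached -0.52, -0.47 and -0.53 without untreated A549 library 1. CCN2 lost the edgeR call without untreated SUM159 library 1 (-0.28, adjusted p = 0.0836) or treated SUM159 library 2 (-0.29, adjusted p = 0.0713), and LAMB3 without untreated SUM159 library 2 (-0.24, adjusted p = 0.0556).

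Epithelial and mesenchymal genes did not move as a block. Of 35, the stable higher ones were SNAI1, KRT81, KRT7, ITGB4 and VIM, and the lower ones KRT18 and CD44, beside 4.90% and 3.15% of all genes. KRT7, a keratin of simple epithelia, rose in SUM159 from 1877.3 and 1877.0 CPM to 3094 and 3181 CPM and did not pass in A549, a difference of 0.67 (SE 0.06). KRT18, its partner in the same tissues, rose in A549 from 5074 and 5001 CPM to 6402 and 7040 CPM and did not pass in SUM159, a difference of -0.47 (SE 0.06). VIM, the mesenchymal filament, fell by 0.40 in A549 and by 0.10 in SUM159. Its difference of 0.30 lost the edgeR call without any 1 A549 library, at 0.11 to 0.15. In those fits the median of all genes moved by -0.13 to -0.17. Without treated A549 library 1 KRT18 was at -0.71, and CD44 moved from -0.22 to -0.37. KRT7 and KRT81 lie in a cluster of similar keratin genes, with KRT86 overlapping both, so reads may be shared.

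Single genes of other lists differed as well. CYP1B1, a target of the aryl hydrocarbon receptor, rose in SUM159 from 2.18 and 2.00 CPM to 4.92 and 5.25 CPM and did not pass in A549, where it lay between 128 and 133 CPM, with a difference of 1.28 (SE 0.15). Of 22 glucocorticoid receptor targets 16 did not pass in the difference and 27.3% did, beside 12.8% of all genes. On this list 2 were stable and higher (TFCP2L1 and FKBP5) and 2 stable and lower (KLF9 and NR3C1), beside 4.90% and 3.15% of all genes. FKBP5, a brake on the receptor, fell in A549 from 87.5 and 85.8 CPM to 59.0 and 57.2 CPM and did not pass in SUM159, whose medium holds hydrocortisone and where it stood at 663 to 720 CPM, a difference of 0.50 that was 0.31 without untreated A549 library 1. KLF9 rose from 1.71 and 2.04 CPM to 3.84 and 4.44 CPM in A549 and from 64.8 and 67.2 CPM to 76.0 and 71.6 CPM in SUM159, a difference of -1.01 (SE 0.17). PFKFB4, which sets a signal that drives glycolysis, rose from 10.0 and 10.9 CPM to 19.5 and 20.2 CPM in SUM159 and did not pass in A549, a difference of 1.16 (SE 0.19). SLC2A3, a glucose transporter, fell in A549 by 0.59 and did not pass in SUM159, a difference of 0.71 (SE 0.12) that was 0.46 without treated A549 library 1. Across the list of 34 glycolysis and hypoxia genes 4 were stable and higher and 3 lower, beside 4.90% and 3.15% of all genes.

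**Figure D4:**
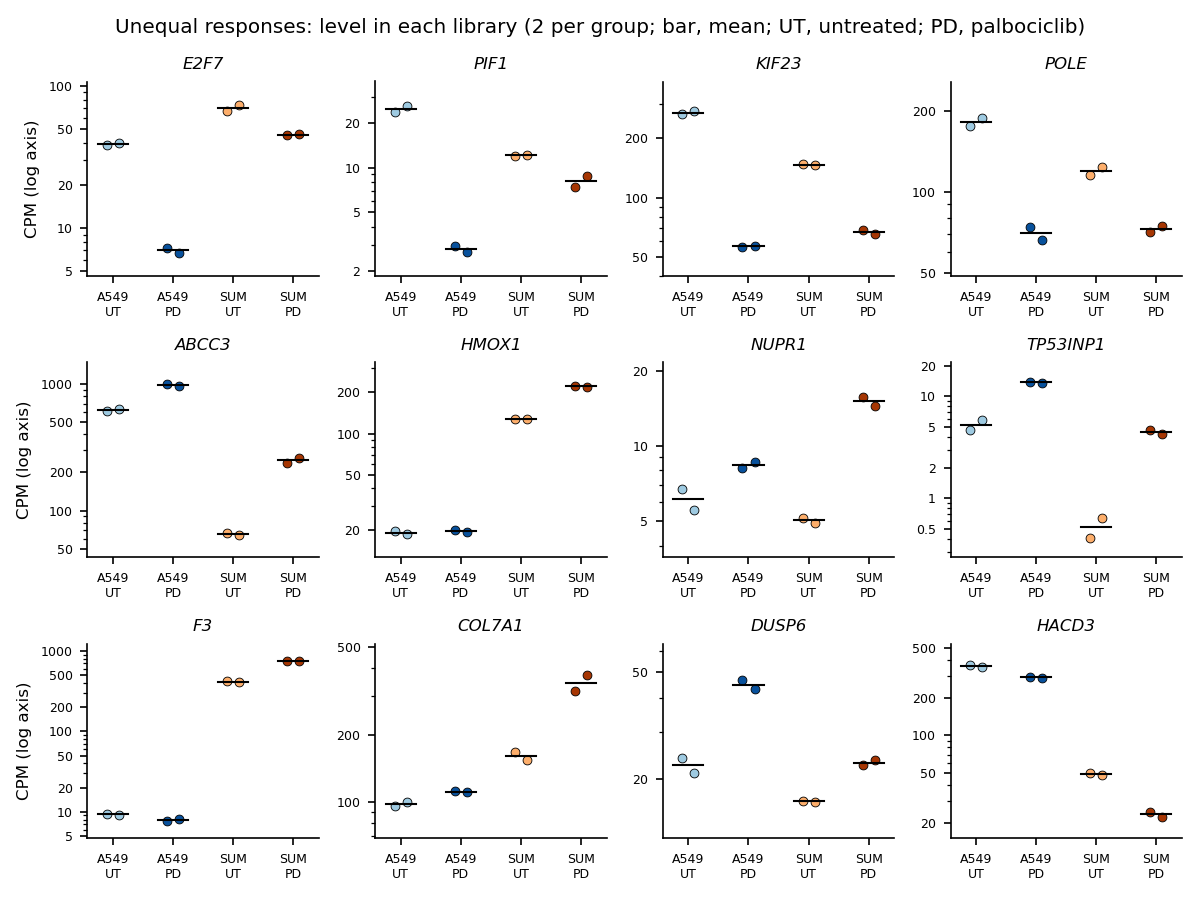
CPM (log axis, a scale of its own for each gene) in each of the 8 libraries for 12 genes with unequal responses; points are libraries, bars are means of 2, UT is untreated and PD is palbociclib. E2F7, PIF1, KIF23 and POLE fall in both lines but further in A549, the genes from ABCC3 to COL7A1 rise further in SUM159, DUSP6 rises further in A549 and HACD3 falls further in SUM159.

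The genes that were lower in SUM159 held fewer large differences. Of 27 genes of ERK output 8 were stable and lower and 2 higher, beside 3.15% and 4.90% of all genes. DUSP6, a phosphatase that switches off ERK and is induced by it, rose from 24.1 and 21.1 CPM to 46.8 and 43.3 CPM in A549 and from 16.6 and 16.5 CPM to 22.7 and 23.5 CPM in SUM159, a difference of -0.51 (SE 0.11, edgeR adjusted p = 0.00334) that was -0.78 without untreated A549 library 1. DUSP5 and SPRY2, other inhibitors induced by the pathway, rose in A549 by 0.50 and 0.44 and did not pass in SUM159. ETV4 and PHLDA1 did not pass in A549 and fell in SUM159 by 0.50 and 0.26, so the same difference arose from a rise in some genes and from a fall in others. SPRY2 moved from -0.43 to -0.65 and PHLDA1 from -0.33 to -0.53 without untreated A549 library 1, and ETV4 from -0.44 to -0.67 without treated A549 library 1. KCNN4, a potassium channel, was 1 of the 2 on the other side, and rose by 0.54 in SUM159 without passing in A549, a difference of 0.70 (SE 0.11).

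On the interferon and antigen presentation list 28 of 42 rose in A549 and 30 in SUM159, beside 18.9% and 28.2% of all genes. The stable differences were 1 higher and 6 lower, beside 4.90% and 3.15% of all genes. IFI44, an interferon-induced gene, rose from 0.534 and 0.408 CPM to 1.61 and 1.01 CPM in A549 and fell from 78.2 and 75.7 CPM to 65.4 and 68.7 CPM in SUM159, a difference of -1.57 (SE 0.35). Its level in SUM159 stayed far above that in A549 throughout. GBP1, IFIT3 and RIGI rose in both lines and more in A549, with differences of -0.63, -0.40 and -0.30. IFIT3 and RIGI lost the edgeR call without untreated SUM159 library 1 (adjusted p = 0.0572 and 0.0653) or library 2 (0.0611 and 0.103), and reached -0.75 and -0.50 without untreated A549 library 1.

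On the ribosome biogenesis and MYC list of 41 genes 29 fell in A549 and 32 in SUM159, beside 21.0% and 20.2% of all genes. Of them 8 were stable and lower and none stable and higher, beside 3.15% and 4.90%. FBL, the methyltransferase of small nucleolar particles, fell from 392.4 and 391.5 CPM to 310 and 318 CPM in A549 and from 237 and 232 CPM to 154 and 155 CPM in SUM159, a difference of -0.28 (SE 0.05). RRS1, an assembly factor of the large subunit, fell from 49.3 and 46.8 CPM to 37.3 and 37.4 CPM and from 52.3 and 51.1 CPM to 28.7 and 29.9 CPM, a difference of -0.45 (SE 0.10). DDX21, IMP4, WDR12, POLR1B and PES1 were the other genes of ribosome assembly or transcription, whereas MXD1, an antagonist of MYC, rose in A549 by 0.77 and did not pass in SUM159. Without untreated SUM159 library 1 the edgeR call was lost by IMP4, WDR12 and PES1 (adjusted p = 0.0801, 0.0547 and 0.0527), and without untreated SUM159 library 2 by POLR1B (adjusted p = 0.110). Without untreated A549 library 1 FBL, DDX21, IMP4, WDR12, POLR1B and PES1 lay between -0.40 and -0.51, against -0.21 to -0.29 with all libraries. Sterol and fatty acid genes gave 1 stable difference higher and 2 lower of 35, and lysosome and autophagy genes gave 3 and 2 of 44, beside 4.90% and 3.15% of all genes.

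**Figure D5:**
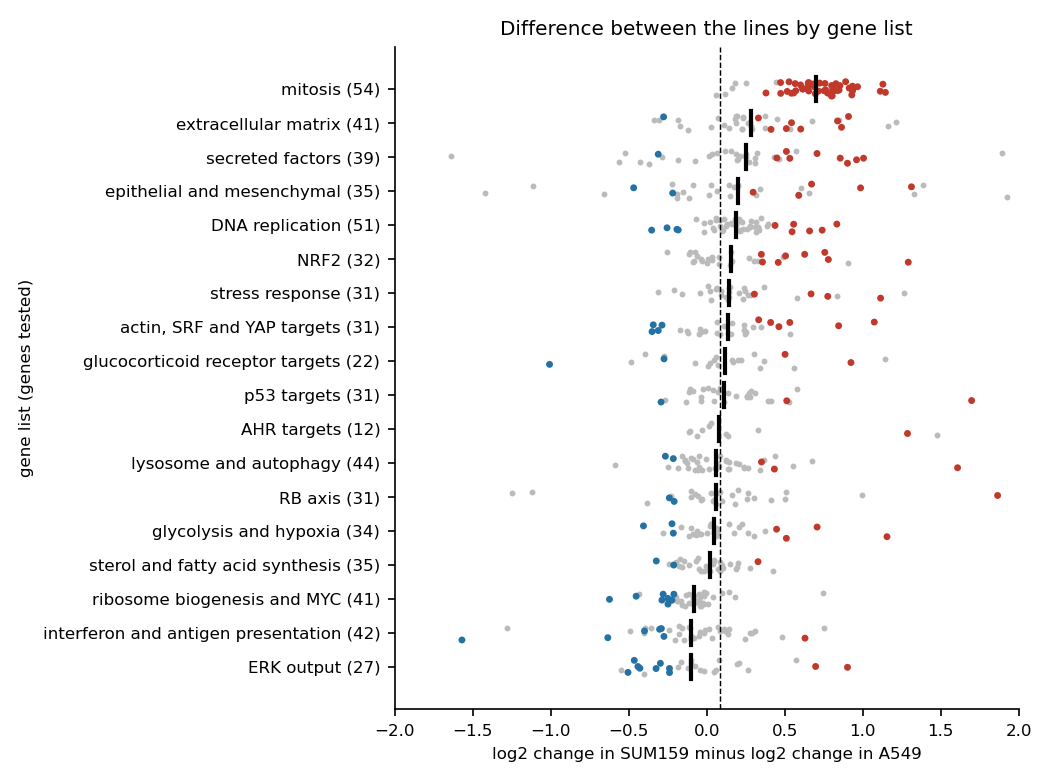
Log2 change in SUM159 minus log2 change in A549 for each tested gene of 18 lists, with the number tested in brackets; red and blue points are stable genes, grey points are the others, black bars are list medians, the dashed line is the median of all genes (0.08), and 11 entries beyond ±2 are not drawn. The mitosis list stands apart with a median of 0.70, and the medians of the other lists lie between -0.10 and 0.29.

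Outside the lists, the largest differences by size often came from genes nearly absent from 1 line. Of the 2274 genes 91 averaged under 1 CPM in 1 line, and 4 had 3 counts or fewer in all 4 libraries of a line. HTRA3, for instance, had 1, 3, 0 and 0 counts in A549 and 33.7 to 44.5 CPM in SUM159, and ACSS3 had 3, 2, 0 and 0 counts in SUM159 and 33.7 to 43.8 CPM in A549, so no fold was taken for either. ADGRF5 had 1 and 0 counts in untreated and 5 and 16 in treated A549, against 330 to 414 CPM in SUM159, and SEMA4G had 1 and 3 counts in untreated and 25 and 32 in treated SUM159, against 66.4 to 125 CPM in A549. With both lines above 1 CPM, ALS2CL, an exchange factor of small GTPases, rose from 19.2 and 24.2 CPM to 42.0 and 43.9 CPM in A549 and from 2.31 and 2.40 CPM to 13.6 and 14.8 CPM in SUM159, a difference of 1.60 (SE 0.19). CYP4F12, a fatty acid hydroxylase, rose by 0.30 and 2.12. TRIM29 and NOTCH3 did not pass in A549 and rose in SUM159 by 1.41 and 1.37. On the other side, CCNB3, a B-type cyclin best known from meiosis, fell in SUM159 from 42.8 and 42.5 CPM to 14.5 and 13.6 CPM and did not pass in A549, where it lay between 1.302 and 2.43 CPM, a difference of -1.39 (SE 0.25). HACD3, an enzyme of fatty acid elongation on chromosome 15, fell from 364 and 351 CPM to 293 and 289 CPM in A549 and from 49.7 and 47.9 CPM to 24.1 and 22.3 CPM in SUM159, a difference of -0.78 (SE 0.07). FAT4, a giant cadherin, rose in A549 by 0.82, and KCTD12 fell in SUM159 by 0.59, each without passing in the other line. TMEM45A rose from 0.320 and 0.642 CPM to 1.36 and 1.98 CPM in A549 and by 0.35 in SUM159, a difference of -1.52 (SE 0.34).

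All 13 protein-coding mitochondrial genes were higher in SUM159 in the difference, by 0.56 to 1.48, and this was noticed in the values. MT-ND5, a subunit of respiratory complex I, was at 1584 and 791 CPM in untreated and 2337 and 2742 CPM in treated SUM159, so the untreated duplicates differed nearly as much as the groups did. The difference for MT-ND5 was 1.48 (SE 0.25), 2.06 without untreated SUM159 library 1 and 1.06 without untreated SUM159 library 2. The mitochondrial share of those libraries moved with this result, and its part in the result was not tested.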

How the data were processed

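RNA of the 16 libraries was made into strand-specific poly(A) libraries and sequenced as pairs. Per the labels and methods, the authors trimmed adapters with SeqPurge, aligned reads to GRCh38 with HISAT2 (2.2.1) and deposited raw counts of reads per Ensembl gene, apparently made with HTSeq, which their processing notes name; the annotation release and strand setting are not given in the sources used here, so counts of overlapping genes are uncertain. Nothing was normalized or pooled. Reads in no gene (13.2% to 15.3% of the total in the 8 libraries compared) were left out. GENCODE 44 gave symbols and coordinates for 58207 of 58676 identifiers.

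The 16 libraries were fitted together in edgeR 4.0.16 (R 4.3.3) with 1 coefficient per group, filterByExpr and TMM scaling, and tested with glmQLFTest, Benjamini-Hochberg adjustment over 17764 genes and a threshold of 0.05, with 8 residual degrees of freedom. CPM values use TMM-scaled library sizes. Standard errors (SE) are those of log2 changes. The floor of 3 counts covers counting error only. The simulated counts for this difference held 17549 genes, with 100 changed by each size. On them edgeR recovered 67% of differences of 0.5 and 90% of 1 on the log2 scale, and 4.27% of its calls were false. They held no other palbociclib response, and the changes were split evenly up and down. The false share thus does not cover the dependence on scaling described above.

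The members and lists were chosen with earlier results of these data known. The rule for named genes took the 8 largest differences in each direction among called protein-coding genes with at least 5 CPM on average, the same sign in both same-numbered sets of libraries and a symbol, the 6 opposite responders of each direction with the largest smaller change, the top 3 called genes of each of 18 lists, and CCND1, CDKN1A, CDK4, CDK6, RB1, E2F1, CCNE2, MKI67 and LMNB1. Other genes were named as stable members of lists or, where said, after their values were seen. A few genes that the rule names are not reported here. The 8 largest in each direction with at least 5 CPM in each line were also added then, as were scaling inside each line, the minimum of 1 CPM in each line and the fit without mitochondrial genes. Alternatives were DESeq2 (1.42.0), other scalings and filters, thinning to the smallest library, a replicate block and leaving out each library, where the remaining library of the group is assumed to vary like the other groups.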

Additional observations from a re-analysis of the deposited data

Results flagged for a closer look

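The test of the difference between the lines itself marked 2274 genes, 174 of them with opposite responses, and the log2 differences (SUM159 minus A549) of the named ones are gathered here. Genes that fell more in A549 were PIF1 (2.59), E2F7 (1.86), IQGAP3 (1.57), GPSM2 (1.39), CENPE (1.15), KIF14 (1.13), KIF23 (1.11), POLE (0.66) and MKI67 (0.63). Genes that fell in A549 and rose in SUM159 were SLC1A4 (1.77), SNAI1 (1.31), HCN3 (1.24), SYNE2 (1.20), TUBB2A (1.10), KRT81 (0.99), TFCP2L1 (0.92), EREG (0.86), TNC (0.86), FBLN1 (0.84) and STC2 (0.67). Genes that rose more in SUM159 were CYP4F12 (1.83), TP53INP1 (1.70), ALS2CL (1.60), ABCC3 (1.29), NUPR1 (1.11) and AKR1C3 (0.78). Genes that rose in SUM159 without passing in A549 were MT-ND5 (1.48), TRIM29 (1.36), NOTCH3 (1.36), CYP1B1 (1.28), PFKFB4 (1.16), F3 (1.07), COL7A1 (0.91), HMOX1 (0.76), KCNN4 (0.70), KRT7 (0.67) and VEGFA (0.51). SLC2A3 (0.71) and FKBP5 (0.50) fell in A549 without passing in SUM159.

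On the lower side, genes that rose in A549 and fell in SUM159 were ASRGL1 (-1.70), IFI44 (-1.57), SOX9 (-1.001), BAIAP2L2 (-0.99), PAG1 (-0.91), ANTXR2 (-0.83), MECOM (-0.82) and METTL18 (-0.75). TMEM45A (-1.52), KLF9 (-1.01), GBP1 (-0.63) and DUSP6 (-0.51) rose more in A549, and FAT4 (-0.84) and MXD1 (-0.62) rose in A549 without passing in SUM159. CCNB3 (-1.39) and KCTD12 (-0.77) fell in SUM159 without passing in A549, and HACD3 (-0.78) and RRS1 (-0.45) fell more in SUM159.

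Of the 87 named genes that passed, 59 also passed without any 1 library and 28 did not, among them the 4 near the floor in 1 group. For the others the difference is followed by its value and adjusted p by edgeR's quasi-likelihood test without the library that weakened it most. In edgeR without untreated A549 library 1 these were CCN1 (0.53, then 0.26, adjusted p = 0.0797), CTSZ (0.35, then 0.12, adjusted p = 0.262), FDPS (0.33, then 0.14, adjusted p = 0.207), MYL9 (0.85, then 0.60, adjusted p = 0.114), PLXNB3 (1.77, then 1.41, adjusted p = 0.198), POLA2 (0.83, then 0.56, adjusted p = 0.0721), SESN2 (0.58, then 0.26, adjusted p = 0.474) and ULK1 (0.55, then 0.32, adjusted p = 0.260). In edgeR without untreated A549 library 2 they were DDB2 (0.51, then 0.32, adjusted p = 0.0659), EBP (0.27, then 0.10, adjusted p = 0.468), TNFAIP3 (0.96, then 0.65, adjusted p = 0.173) and TPP1 (0.43, then 0.21, adjusted p = 0.186). In edgeR without treated A549 library 2 they were DDIT3 (0.78, then 0.57, adjusted p = 0.0777), E2F8 (0.51, then 0.14, adjusted p = 0.693), LMNB1 (0.34, then 0.11, adjusted p = 0.404), RBL1 (0.41, then 0.15, adjusted p = 0.457) and STAT2 (0.63, then 0.44, adjusted p = 0.101). In edgeR without untreated SUM159 library 1 it was B3GALT5 (-1.13, then -0.99, adjusted p = 0.120), and without untreated SUM159 library 2 they were CDK4 (-0.21, then -0.16, adjusted p = 0.222) and LIF (0.90, then 0.49, adjusted p = 0.244). In edgeR without treated SUM159 library 2 they were DYRK1B (-1.18, then -0.89, adjusted p = 0.0991), MXD3 (0.75, then 0.47, adjusted p = 0.391), PLEKHH2 (1.78, then 1.19, adjusted p = 0.200) and RAB38 (-1.97, then -1.15, adjusted p = 0.416). RAB38 had 6, 6, 4 and 1 counts in SUM159. Fits without an A549 library moved the median difference of all genes by -0.13 to -0.17. The values above without an A549 library include that shift.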

How the results depend on the processing

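The total of genes called stayed within 1.5 times its value under every scaling, while the counts by direction did not; the cause was not tested. With DESeq2 size factors in edgeR 1034 genes were higher and 1315 lower in SUM159, and opposite responses numbered 57 (fell in A549, rose in SUM159) and 146 (the reverse). With scaling inside each line 1022 were lower, and 72 and 105 were opposite; with total counts 69 and 86 were opposite. The DESeq2 Wald test gave 739 higher, 1018 lower, 2433 falls in A549 and 33 and 104 opposite. With at least 1 CPM in each line there were 1066 higher and 1586 lower, and 54 and 172 opposite. Without mitochondrial genes there were 864 higher, 2154 lower and 268 opposite, of which 39 fell in A549 and rose in SUM159 and 229 did the reverse. The fits without mitochondrial genes and with at least 1 CPM in each line also took a SUM159 library as scaling reference. The part of the genes left out and that of the reference were not tested apart. With an absolute log2 of at least 1, 279 differences remained (261 higher, 18 lower), 891 changes in A549 (419 up, 472 down) and 1435 in SUM159 (1142 up, 293 down). Leaving out 1 library gave 1546 to 3138 calls, 580 to 1629 higher and 327 to 2410 lower, 2100 to 3758 falls in A549, and 117 to 301 opposite, 22 to 116 in the one direction and 32 to 273 in the other; without an A549 library 1424 to 2410 were lower, and without a SUM159 library 327 to 587.

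Of 93 named genes under 19 alternatives, 1585 results were on the same side of the threshold with the same direction, 130 were weaker and 33 reversed, all of the latter in genes that were not called. With DESeq2 size factors, scaling inside each line, the Wald test, the minimum of 1 CPM and no mitochondrial genes, CCND1 was at -0.0515, -0.0208, -0.0515, -0.0532 and -0.09997, CDKN1A at -0.0594, -0.0289, -0.0574, -0.0609 and -0.109, and RB1 at -0.0408, -0.0102, -0.0406, -0.0426 and -0.08998. With total counts CCND1 was at -0.00325 and CDKN1A at -0.0114, and after thinning CCNE2 was at -0.0501. Leaving out 1 library gave CCND1 -0.149 to 0.0634, CDKN1A -0.242 to 0.065, RB1 -0.129 to 0.0901, CCNE2 -0.0878 to 0.236 and CDK6 -0.298 to 0.00377. Of 39 further list members named, 22 passed without any 1 library and 17 did not, 7 of them without an A549 library and 11 without a SUM159 library, and none changed sign. Over the alternatives the mitosis list gave 46 to 49 higher and 0 lower, ERK output 6 to 15 lower, interferon 4 to 20 lower and ribosome biogenesis 5 to 28 lower.

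The fit with the replicate number as a block called 2084 genes, 1588 higher and 496 lower, and 164 opposite. Same-numbered libraries did not deviate together (correlation -0.0957 in A549 and -0.00812 in SUM159), and the labels do not say that a number marks a batch.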
